A study of Homo sapiens with 6 samples.

Results

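The cytoplasmic tyrosine kinase SYK and the kinases of the SRC circuit were followed by RNA-seq in SW480 cells after knockdown of the transcription factor ZEB1. The 10 genes SYK, SRC, YES1, FYN, LYN, LCK, FRK, PTK6, CSK and ABL2 were chosen by name, knowing from earlier results of these data that SYK rose strongly, and they are 10 of the 32029 genes counted. All 10 were among the 14996 genes with enough reads to be tested. SW480 is an established human colorectal adenocarcinoma line. Cells of genotype WT transfected with the control siNC (3 cultures) were compared with ZEB1 knockdown cells transfected with siZEB1 (3 cultures), and all RNA was taken 48 h after transfection. The comparison rests on a single line and a transient knockdown, and the siRNA sequences used for these libraries are not given in the sources used here. The study describes the 3 cultures of a group as biological replicates.

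SYK carries paired SH2 domains that dock on phosphorylated tyrosine motifs (ITAMs) of immune receptors, and it is known for coupling B-cell and Fc receptors to calcium and NF-κB signalling. SRC, YES1, FYN, LYN and LCK are membrane-anchored SRC-family kinases that phosphorylate such motifs and the scaffolds of focal adhesions. FRK and PTK6 are epithelial relatives that lack the lipid anchor typical of the family, CSK phosphorylates the inhibitory tail tyrosine of SRC-family kinases, and ABL2 couples tyrosine signalling to the actin cytoskeleton. Each measurement below is an mRNA level. Protein and kinase activity were not measured.

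The libraries held 19040636 to 22357633 counted reads. ZEB1 (ENSG00000148516), the targeted transcript, had 1247, 1276 and 908 reads in the siNC cultures and 136, 132 and 162 in the siZEB1 cultures, which was 54.2 ± 6.24 against 7.51 ± 0.843 CPM (reads scaled to the library total assigned to genes; mean ± SD, n = 3 cultures here and below). The transcript fell by 2.85 on the log2 scale (SE 0.11, adjusted p = 4.85e-12 by edgeR's quasi-likelihood test), so the knockdown labels held in all 6 libraries. Of 12 colon epithelial markers, the keratin genes KRT8 (63244 to 76451 reads) and KRT18 (25333 to 31826 reads) were abundant in every library. EPCAM, an epithelial adhesion molecule, rose from 54.7 ± 2.29 to 454.0 ± 14.1 CPM (log2 fold change 3.05, SE 0.062, adjusted p = 2.54e-15), and VIL1 and KRT19 rose with it. CDX2, the intestinal transcription factor, fell by 1.30 on the log2 scale. CEACAM5, LGALS4, GPA33 and CDH17, markers of differentiated colon epithelium, had at most 17 reads in any library. The keratin gene KRT20 had 2 to 20 reads per library and was not called (log2 fold change 0.32, adjusted p = 0.664 by edgeR). CDX1 was not among the genes counted.

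By the call rule used here, an adjusted p under 0.05 in a fit across all 14996 genes, 4 of the 10 kinases were higher with siZEB1 (SYK, LCK, FRK and CSK), 2 were lower (SRC and ABL2) and 4 were not called (YES1, FYN, LYN and PTK6). Across all tested genes 19.0% were called higher, 21.2% lower and 40.2% in either direction. By a stricter rule, a fold above 1.5 with p under 0.001, SYK, LCK, FRK and CSK were still called higher and none was called lower, beside 4.52% and 6.70% of all tested genes. The median log2 fold change was 0.29 over the 10 kinases and −0.005 over all tested genes. The CPM values of the 3 siNC and the 3 siZEB1 cultures did not overlap for the 6 called kinases and overlapped for the other 4, while 49.5% of all tested genes had groups that did not overlap. The kinases were chosen with this contrast in view, SYK for its rise, so these calls only label the members within the fit of all genes and are no independent evidence that they changed. In bulk RNA, fewer cells expressing a gene and less of its RNA per cell cannot be told apart.

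**Figure D1:**
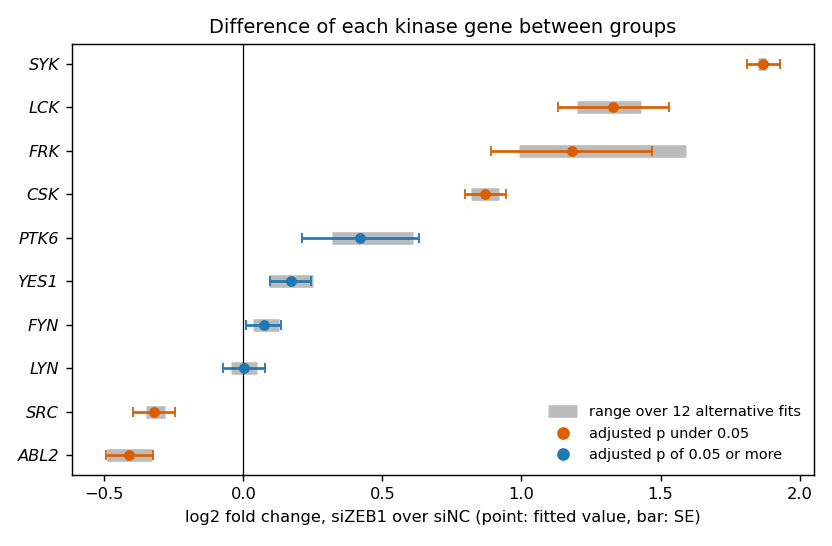
Log2 fold change of each kinase (siZEB1 against siNC, edgeR; bars show the SE) beside its range over the alternative fits. SYK stands at 1.87, LCK, FRK and CSK lie between 0.87 and 1.33, and SRC and ABL2 lie below 0.

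The 4 kinases that rose are shown with the promoter windows that RefSeq gives for them, because ZEB1 is known to bind E-boxes of the sequence CACCTG. Each window runs from 250 bases before to 50 bases after an annotated start site on GRCh38.p14, and capitals mark CACCTG or its reverse complement CAGGTG. The SYK window is chr9:90801350-90801649 on the plus strand, the LCK window chr1:32251015-32251314 on the plus strand, the CSK window chr15:74788294-74788593 on the plus strand and the FRK window chr6:116060842-116061141 on the minus strand.
SYK: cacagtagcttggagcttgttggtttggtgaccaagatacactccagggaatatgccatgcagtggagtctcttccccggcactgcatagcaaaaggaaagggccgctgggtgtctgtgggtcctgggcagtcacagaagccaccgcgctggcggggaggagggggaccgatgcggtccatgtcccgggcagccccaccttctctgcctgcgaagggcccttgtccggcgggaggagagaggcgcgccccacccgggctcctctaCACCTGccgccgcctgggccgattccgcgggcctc
LCK: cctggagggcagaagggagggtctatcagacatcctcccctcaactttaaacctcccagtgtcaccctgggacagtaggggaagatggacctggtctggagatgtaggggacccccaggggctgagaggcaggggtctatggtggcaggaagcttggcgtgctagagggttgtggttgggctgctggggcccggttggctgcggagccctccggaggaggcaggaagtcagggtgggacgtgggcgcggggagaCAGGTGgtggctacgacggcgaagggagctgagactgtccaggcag
CSK: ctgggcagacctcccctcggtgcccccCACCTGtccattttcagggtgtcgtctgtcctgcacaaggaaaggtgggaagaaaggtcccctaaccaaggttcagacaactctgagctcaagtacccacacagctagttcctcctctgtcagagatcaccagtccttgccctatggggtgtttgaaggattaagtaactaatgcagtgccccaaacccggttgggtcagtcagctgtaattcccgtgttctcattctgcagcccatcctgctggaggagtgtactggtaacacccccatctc
FRK: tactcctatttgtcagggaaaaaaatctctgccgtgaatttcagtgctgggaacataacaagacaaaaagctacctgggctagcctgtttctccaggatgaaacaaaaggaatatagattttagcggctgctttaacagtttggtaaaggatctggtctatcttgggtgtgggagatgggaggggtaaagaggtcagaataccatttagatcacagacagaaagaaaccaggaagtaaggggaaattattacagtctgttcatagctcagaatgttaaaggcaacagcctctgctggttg
The word begins 16 bases after the start in SYK, 5 bases after it in LCK and 223 bases before it in CSK, and it is absent from the FRK window. Both strands were read, and CACCTG and CAGGTG are also cases of the general E-box CANNTG. The table of promoters matched 7 of the 10 kinases, and 3 of these 7 windows held the word. It was not found in the windows of YES1, FYN and ABL2, nor in that of ZAP70, the paralog of SYK. For comparison, 20.6% of 27305 RefSeq promoter windows held it, as did 18.6% of 10428 windows of tested genes, 21.7% of 2142 windows of genes called higher and 15.9% of 2397 windows of genes called lower. A match describes letters in 1 window, and no binding was measured in these files. Only 1 window was read for each gene. The CSK window and the ABL2 window (chr1:179143027-179143326) lie inside the annotated spans of these genes, downstream of their outermost starts. The SYK and FRK windows lie wholly upstream of the annotated spans of these genes. Among the other genes read, SYK and YES1 have 3 annotated protein-coding starts each, LCK 8, FYN 19 and ZAP70 2. The other starts of these genes, CSK and ABL2 were not read, so a match or its absence does not describe all of their promoters.

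SYK (ENSG00000165025; GRCh38 chr9:90801787-90898549, plus strand) had 1333, 1381 and 1150 reads in the siNC cultures and 4290, 4265 and 4263 in the siZEB1 cultures. Each siZEB1 culture held more than 3 times the SYK reads of any siNC culture. Scaled to library size, SYK stood at 62.7, 61.7 and 59.7 CPM with siNC and at 227.0, 222.0 and 223.0 CPM with siZEB1. The cultures of a group lay close together, with a coefficient of variation of 2.52% and 1.30%, and the group means of 61.3 ± 1.54 and 224.0 ± 2.91 CPM were in a ratio of 3.65. The log2 fold change of 1.87 (SE 0.060) was the highest of the 10 kinases, and 0.46% of the tested genes had a higher one.

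**Figure D2:**
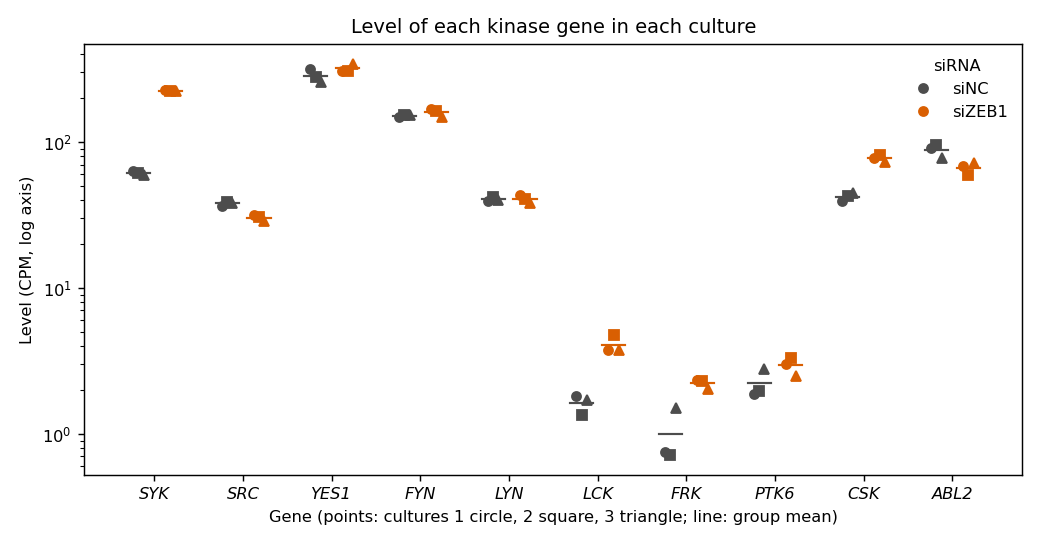
Level of each kinase in CPM, on a log axis, in the 3 siNC and 3 siZEB1 cultures (points; bars mark group means). The groups of SYK, LCK, FRK, CSK, SRC and ABL2 are separate, and those of YES1, FYN, LYN and PTK6 overlap.

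ZAP70 (ENSG00000115085; GRCh38 chr2:97713560-97739862, plus strand), the only paralog of SYK and best known from T-cell receptor signalling, moved the opposite way. It had 11408, 12681 and 12157 reads with siNC and 6566, 6812 and 6595 reads with siZEB1, so every siZEB1 culture was below every siNC culture. Its mean fell from 578.0 ± 48.1 to 349.0 ± 4.93 CPM (log2 fold change −0.73, SE 0.061, adjusted p = 6.91e-08 by edgeR). In TPM, which divides reads by transcript length before scaling to the library, ZAP70 stood at 422.0 ± 27.2 with siNC, above 97.9% of the tested genes, and at 254.0 ± 3.85 with siZEB1. SYK rose from 44.0 ± 1.93 to 160.0 ± 3.70 TPM, so ZAP70 remained the more abundant transcript in all 6 cultures. The share of SYK in the summed TPM of the pair was 10.3, 9.65 and 8.49% in the siNC cultures and 39.1, 38.0 and 38.8% in the siZEB1 cultures. The mean share was 9.48 ± 0.909% with siNC and 38.6 ± 0.525% with siZEB1, and the summed TPM of the pair was 466.0 ± 25.3 and 414.0 ± 6.32.

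**Figure D3:**
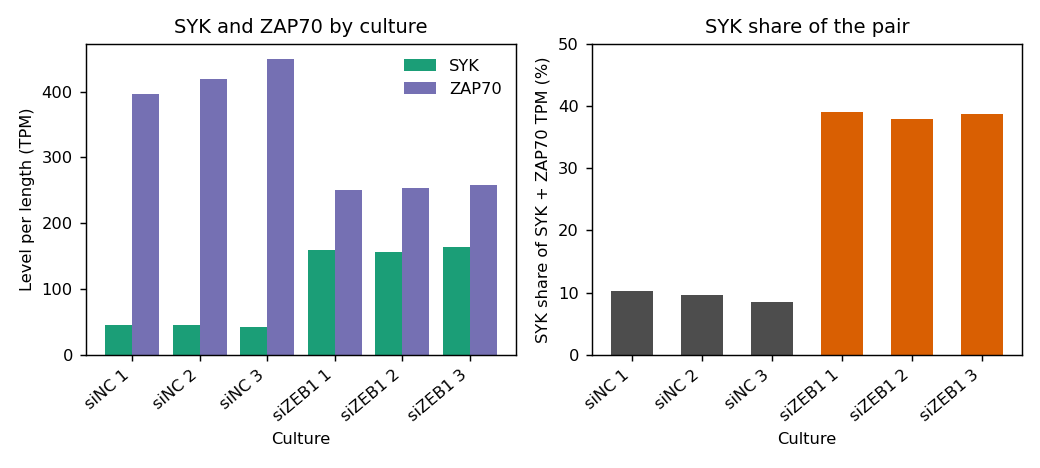
SYK and ZAP70 in TPM by culture, with the share of SYK in their sum. SYK holds 8.49 to 10.3% of the sum with siNC and 38.0 to 39.1% with siZEB1.

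Blood-cell markers were examined beside SYK, ZAP70 and LCK, which are best known from lymphocytes. Of 14 haematopoietic markers 3 had enough reads to be tested and none was called, while PTPRC and MS4A1 were not among the genes counted. The tested markers were GZMB, a cytotoxic granule protease gene, with 62 to 96 reads per library, the T-cell receptor subunit gene CD3D with 18 to 29, and the monocyte gene CD14 with 8 to 17. The subunit genes CD3E and CD247, by contrast, had at most 3 reads, and every untested marker among the genes counted had at most 11. The untested monocyte gene CSF1R had 5, 2 and 3 reads with siNC and 11, 6 and 10 with siZEB1. Leaving out siNC replicate 1 or siZEB1 replicate 2 gave 1 marker called higher. The summed level of the list was 6.30 to 7.26 CPM in the siNC cultures and 6.90 to 9.16 CPM in the siZEB1 cultures. SYK (59.7 to 227.0 CPM) and ZAP70 (345.0 to 631.0 CPM) each lay above that sum in every culture. LCK (1.34 to 4.73 CPM) lay below it in every culture. The part of such cells in the levels of SYK, ZAP70 and LCK was not tested. Of 11 fibroblast and endothelial markers 4 were tested, with a summed level of 15.3 to 17.2 CPM with siNC and 14.9 to 17.0 CPM with siZEB1. Only PDGFRB of that list was called (log2 fold change 0.42, SE 0.14, adjusted p = 0.0281 by edgeR), and that call was lost without siNC replicate 1, siZEB1 replicate 1 or siZEB1 replicate 3.

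Among the ubiquitous SRC-family kinases, SRC alone was called. SRC (ENSG00000197122; chr20:37344685-37406050, plus strand) had 775, 870 and 739 reads with siNC and 596, 591 and 547 with siZEB1. The highest siZEB1 culture, at 31.6 CPM, lay below the lowest siNC culture, at 36.4 CPM. The mean fell from 37.9 ± 1.26 to 30.3 ± 1.54 CPM (log2 fold change −0.32, SE 0.076), a ratio of 0.80.

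YES1 (ENSG00000176105; chr18:721588-812546, minus strand), the closest relative of SRC, had 6768, 6258 and 4929 reads with siNC and 5789, 5894 and 6585 with siZEB1. The groups overlapped, since siNC replicate 1 at 318.0 CPM exceeded 2 of the siZEB1 cultures, both at 307.0 CPM. The log2 fold change was 0.17 (SE 0.074) and was not called, but it was called at 0.25 when siNC replicate 1 was left out and at 0.16 with no filter on low counts. An annotated gene on the opposite strand, AP001020.3, shares 3.02% of the exonic bases of YES1, and the strand setting of the counting is not given in the sources used here.

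FYN (ENSG00000010810; chr6:111660332-111873452, minus strand), which phosphorylates adhesion and T-cell receptor targets, had 3150, 3398 and 2963 reads with siNC and 3166, 3122 and 2822 with siZEB1. The siNC cultures at 148.0 to 154.0 CPM lay within the siZEB1 range of 147.0 to 168.0 CPM, and the log2 fold change was 0.074 (SE 0.063). FYN has 19 annotated protein-coding transcripts, and gene counts do not separate its splice forms.

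LYN (ENSG00000254087; chr8:55879813-56014168, plus strand), which acts upstream of SYK in B cells, had 840, 943 and 771 reads with siNC and 816, 781 and 728 with siZEB1. Its groups overlapped, with 40.5 ± 1.38 and 40.6 ± 2.59 CPM. Its log2 fold change was 0.003 (SE 0.075), and the sign changed between alternative fits, which ranged from −0.043 to 0.05.

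LCK (ENSG00000182866; chr1:32251239-32286165, plus strand), the lymphocyte member of the family, was scarce but higher in every siZEB1 culture. It had 39, 30 and 33 reads with siNC and 71, 91 and 72 with siZEB1. The mean rose from 1.63 ± 0.258 to 4.09 ± 0.561 CPM (log2 fold change 1.33, SE 0.20), a ratio of 2.51. FGR had at most 1 read in any library, while BLK had 2, 8 and 1 reads with siNC and 0, 1 and 4 with siZEB1. Neither could be tested at this depth.

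Per transcript length, YES1 made up most of the SRC-family message. Its level was 235.0, 207.0 and 183.0 TPM with siNC and 221.0, 220.0 and 258.0 TPM with siZEB1. The summed TPM of the 8 family members was 333.0 ± 26.4 with siNC and 360.0 ± 17.0 with siZEB1, and the groups overlapped. Of that sum YES1 held 62.5 ± 2.97% with siNC and 64.8 ± 2.89% with siZEB1, and FYN held 23.0 ± 1.86% and 22.3 ± 1.92%. The share of FYN depends on the length used, and with the length of the longest transcript it was 35.1 ± 2.35% and 34.3 ± 2.48%. The share of SRC was 6.60 ± 0.594% with siNC and 4.86 ± 0.347% with siZEB1, with every siZEB1 culture below every siNC culture. LCK went from 0.548 ± 0.0837% to 1.27 ± 0.197% of the sum. The makeup of the family thus differed between the groups in its minor members, while its summed level did not separate them.

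**Figure D4:**
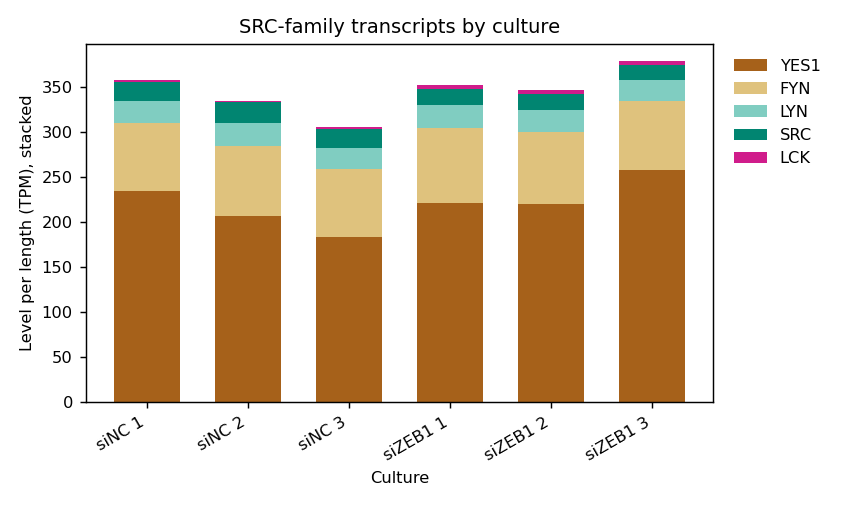
Summed TPM of the SRC family in each culture, stacked by kinase (members near 0 are not drawn). YES1 holds 59.8 to 68.1% of the sum in every culture, and the sum is 306.0 to 358.0 TPM with siNC and 348.0 to 379.0 TPM with siZEB1.

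FRK (ENSG00000111816; chr6:115931149-116060758, minus strand), a nuclear and cytoplasmic epithelial kinase, had 16, 16 and 29 reads with siNC and 44, 44 and 39 with siZEB1. All siZEB1 cultures were above all siNC cultures, with means of 2.22 ± 0.158 and 0.990 ± 0.445 CPM. The siNC cultures themselves varied widely, with a coefficient of variation of 45.0%. The log2 fold change was 1.18 (SE 0.29), a ratio of 2.24, and it ran from 0.99 to 1.59 over the alternative fits.

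PTK6 (ENSG00000101213; chr20:63528001-63537370, minus strand), also called BRK, had 40, 44 and 54 reads with siNC and 57, 64 and 48 with siZEB1. The groups overlapped, because siZEB1 replicate 3 at 2.51 CPM was below siNC replicate 3 at 2.80 CPM. The log2 fold change was 0.42 (SE 0.21) and was called, at 0.61, only in the fit without siNC replicate 3. SRMS, a further kinase of the PTK6 branch, had 2 to 10 reads per library and was not tested.

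CSK (ENSG00000103653; chr15:74782057-74803198, plus strand), the kinase that holds SRC-family members inactive, had 834, 961 and 859 reads with siNC and 1469, 1562 and 1386 with siZEB1. Every siZEB1 culture was above every siNC culture. The mean rose from 42.2 ± 2.73 to 77.2 ± 4.45 CPM (log2 fold change 0.87, SE 0.074), a ratio of 1.83. For each 100 TPM of summed SRC-family transcript there were 9.03, 10.6 and 11.6 TPM of CSK in the siNC cultures and 17.8, 18.8 and 16.0 TPM in the siZEB1 cultures. MATK, the relative of CSK in blood and brain cells, had at most 3 reads in any library.

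ABL2 (ENSG00000143322; chr1:179099327-179229684, minus strand), also called ARG, had 1941, 2127 and 1505 reads with siNC and 1291, 1141 and 1368 with siZEB1. The groups did not overlap, and the mean fell from 88.1 ± 8.89 to 66.4 ± 6.31 CPM (log2 fold change −0.41, SE 0.085), a ratio of 0.754. Its paralog ABL1 stood at 98.4 ± 2.30 CPM with siNC and 110.0 ± 3.33 CPM with siZEB1 (log2 fold change 0.15, SE 0.062, adjusted p = 0.0563 by edgeR), which was not called here. ABL1 was called by DESeq2, and by edgeR with median-of-ratios scaling or with at least 10 reads in every library.

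On the TPM scale the order of the 10 kinases with siNC was YES1 (208.0 ± 26.3), FYN (76.1 ± 1.09), SYK (44.0 ± 1.93), CSK (34.5 ± 1.83), ABL2 (24.8 ± 2.97), LYN (24.5 ± 1.12), SRC (21.9 ± 0.755), PTK6 (2.80 ± 0.582), LCK (1.82 ± 0.281) and FRK (0.278 ± 0.119). The ranges of ABL2 overlapped those of LYN and of SRC, so these neighbours in the order could not be separated. With siZEB1, SYK stood second behind YES1 (233.0 ± 21.5 TPM), ahead of FYN (79.9 ± 3.57 TPM) and CSK (62.8 ± 2.30 TPM). LYN was at 24.4 ± 1.13 TPM, and ABL2 (18.7 ± 2.12 TPM) and SRC (17.4 ± 0.522 TPM) overlapped. The place of SYK rests on union exon lengths: with longest-transcript lengths it was 122.0 ± 3.15 TPM with siZEB1, overlapping FYN at 119.0 ± 5.14 TPM. With siNC, those lengths put CSK (41.8 ± 2.15 TPM) above SYK (33.6 ± 1.51 TPM) and SRC (22.4 ± 0.752 TPM) above LYN (19.1 ± 0.873 TPM). On union exon lengths with siZEB1, LCK passed PTK6 in mean level, at 4.55 ± 0.568 against 3.72 ± 0.445 TPM, though their ranges met. On longest-transcript lengths LCK and PTK6 were at 2.06 ± 0.321 and 2.07 ± 0.428 TPM with siNC. With siZEB1 those lengths gave 5.14 ± 0.63 and 2.74 ± 0.321 TPM, and the ranges did not meet. FRK was last in both groups, at 0.624 ± 0.0307 TPM with siZEB1 on union exon lengths.

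Genes of the surrounding pathways were read from lists, which were drawn up with earlier results of these data known, and 40.2% of all tested genes are the background for their counts. Of 13 further cytoplasmic tyrosine kinases tested, 1 was higher, 4 were lower and 8 were not called, with a median log2 fold change of 0.061. PTK2B, the calcium-responsive focal adhesion kinase PYK2 that works with SRC, had 238, 260 and 185 reads with siNC and 484, 578 and 477 with siZEB1. It rose from 10.8 ± 1.06 to 26.9 ± 2.78 CPM (log2 fold change 1.31, SE 0.10, adjusted p = 3.46e-08 by edgeR). Its paralog PTK2, which encodes FAK, moved the other way, from 53.6 ± 2.21 to 40.7 ± 1.19 CPM (log2 fold change −0.40, adjusted p = 0.000222). The kinases of cytokine receptors TYK2 (log2 fold change −0.30, adjusted p = 0.00291) and JAK1 (−0.26, adjusted p = 0.00908) were lower by less, and the JAK1 call was lost without replicate 2 of either group.

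Of 15 tested regulators that set the activity of SRC-family kinases, 2 were higher, 5 were lower and 8 were not called, with a median log2 fold change of −0.13. The membrane adaptor PAG1, which recruits CSK, had 120, 145 and 82 reads with siNC and 61, 40 and 75 with siZEB1. PAG1 was therefore lower (log2 fold change −0.83, SE 0.21, adjusted p = 0.00402 by edgeR) where CSK itself was higher. The ubiquitin ligase CBLB was lower by a similar amount (−0.94, SE 0.22, adjusted p = 0.00272), while its relative CBL was not called (0.089, adjusted p = 0.454). Among tyrosine phosphatases, PTPN12 (−0.68, adjusted p = 4.01e-07), PTPRJ (−0.58, adjusted p = 6.61e-06) and PTPRA (−0.27, adjusted p = 0.00434) were lower. PTPRA and PTPRJ can remove the inhibitory tail phosphate that CSK places. PTPN2 (0.46, adjusted p = 1.39e-05) and PTPN11, which encodes SHP2 (0.32, adjusted p = 0.00276), were higher, and PTPN1 was not called (−0.13, adjusted p = 0.0612).

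Of 24 tested SRC substrates and adhesion scaffolds, 4 were higher, 11 were lower and 9 were not called, with a median log2 fold change of −0.17. The inhibitory membrane receptor SIRPA had 1492, 1741 and 1467 reads with siNC and 606, 621 and 518 with siZEB1, and its log2 fold change of −1.29 (SE 0.081, adjusted p = 2.21e-09 by edgeR) was the lowest of the list. The adhesion scaffold TNS1 (−0.86, adjusted p = 2.93e-07), the actin adaptor AFAP1 (−0.82, adjusted p = 0.0131), the GTPase-activating protein ARHGAP35 (−0.68, adjusted p = 7.73e-07) and the podosome scaffold SH3PXD2B (−0.55, adjusted p = 0.000416) were also lower. Without siNC replicate 1 or siZEB1 replicate 2, the count of lower genes went from 11 to 7 and the AFAP1 call was lost. Paxillin, PXN, was lower too (−0.38, adjusted p = 0.00131). CAV1, the caveolar coat protein, rose from 5.26 ± 0.308 to 9.27 ± 0.748 CPM (0.82, adjusted p = 5.41e-05), and the cortactin gene CTTN was higher by 0.27 (adjusted p = 0.00113). BCAR1 (−0.008, adjusted p = 0.934) and CDCP1 (0.065, adjusted p = 0.395), a scaffold and a membrane substrate of SRC, were not called.

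**Figure D5:**
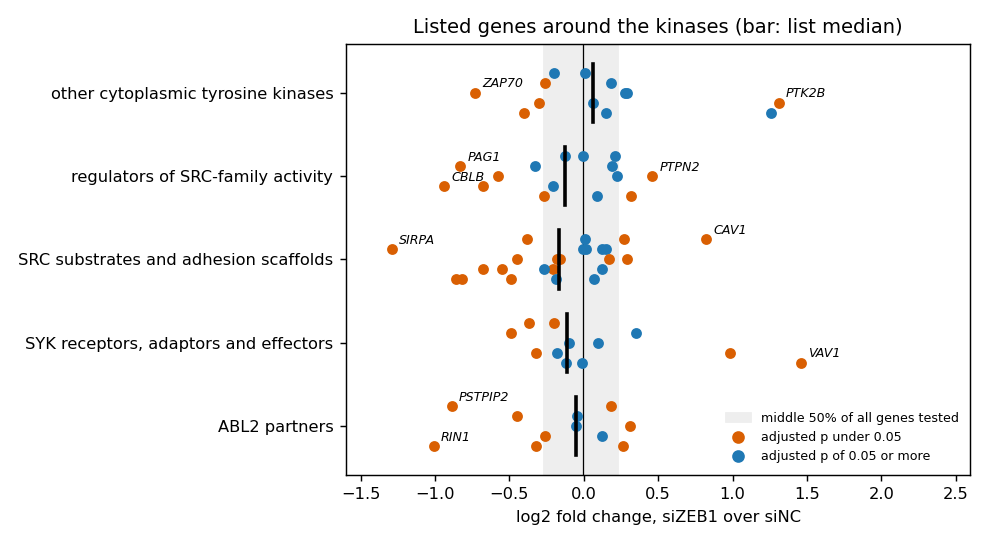
Log2 fold changes (siZEB1 against siNC) of the tested genes in the lists of kinases, regulators, substrates and partners, 1 point per gene. The list medians lie between −0.17 and 0.061.

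Of 24 receptors, adaptors and effectors of SYK, 12 were tested, of which 2 were higher, 4 were lower and 6 were not called, with a median log2 fold change of −0.11. The ITAM adaptors and the haematopoietic scaffolds were scarcely counted. FCER1G had 4, 7 and 2 reads with siNC and 0, 6 and 10 with siZEB1, LAT had 3 to 10 reads per library, and TYROBP, LCP2 and BLNK had at most 2 reads in any library. VAV1, a guanine nucleotide exchange factor, had 5, 3 and 14 reads with siNC and 18, 24 and 14 with siZEB1 (log2 fold change 1.46, SE 0.48, adjusted p = 0.0222 by edgeR), and that call was lost on leaving out replicate 1 or 2 of either group. PLCG2 (−0.49, adjusted p = 0.0193), the adaptor SH3BP2 (−0.37, adjusted p = 0.00184), the lipid kinase PIK3CD (−0.32, adjusted p = 0.0108) and MALT1 (−0.20, adjusted p = 0.0215) were lower. The PLCG2 and MALT1 calls were lost on leaving out replicate 1 or 2 of either group, which left 1 to 2 lower genes of the list, and the PIK3CD call was lost without siZEB1 replicate 1. PLCG1 (0.094, adjusted p = 0.228) and VAV2 (−0.18, adjusted p = 0.0615) were not called, and VAV3 had at most 2 reads.

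Of 11 tested partners of ABL2, 3 were higher, 5 were lower and 3 were not called, with a median log2 fold change of −0.055. RIN1, which binds and activates ABL kinases, had 332, 326 and 310 reads with siNC and 164, 143 and 130 with siZEB1 (log2 fold change −1.01, SE 0.11, adjusted p = 1.77e-06 by edgeR). The F-BAR protein PSTPIP2 (−0.89, adjusted p = 7.83e-07), the adhesion adaptor SORBS3 (−0.45, adjusted p = 0.00426) and the WAVE subunit WASF2 (−0.32, adjusted p = 0.000533) were lower together with ABL2. The adaptors NCK1 (0.31, adjusted p = 0.019) and ABI1 (0.26, adjusted p = 0.0151) were higher. The NCK1 call was lost without siNC replicate 2, siZEB1 replicate 2 or siZEB1 replicate 3, and the ABI1 call without siNC replicate 2 or siZEB1 replicate 3. Leaving out one of these cultures left 0 to 1 partners called higher.

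Of the protein-coding genes within 1 Mb of SYK, 4 were tested and 2 were called, both higher, beside 40.2% of all tested genes called in either direction. DIRAS2, a small GTPase gene, had 2, 5 and 5 reads with siNC and 16, 11 and 10 with siZEB1 (log2 fold change 1.73, SE 0.49, adjusted p = 0.00964 by edgeR), and that call was lost without replicate 1 of either group. AUH, a mitochondrial enzyme gene, rose from 15.6 ± 2.10 to 21.5 ± 0.727 CPM (0.46, SE 0.10, adjusted p = 0.00132). NFIL3 (−0.21, adjusted p = 0.0769) and ROR2 (−0.14, adjusted p = 0.24) were not called. The fitted changes of all 4 neighbours lay below that of SYK, for DIRAS2 by less than its SE.

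Over the 6 cultures, the genes whose log2 CPM profile lay nearest to that of SYK, among 13196 genes compared, were NOLC1 (distance 0.190 on the log2 scale), LOXL3 (0.200), ZNF616 (0.201), TPM4 (0.267) and AC114296.1 (0.306). The distance is the Euclidean one between profiles centred on the siNC mean. These genes lay at levels from 3.47 to 249.0 CPM with siNC, where SYK was at 61.3 CPM, and their log2 fold changes were 1.72 to 1.91. Genes near SYK by this distance have a similar change by construction, so the likeness of these changes is no separate result.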

How the data were processed

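RNA-seq was done on 6 SW480 cultures. The authors deposited 6 tables of raw read counts per gene, 1 for each culture. Per the submitters' processing notes, Trimmomatic, HISAT2, SAMtools and featureCounts were used with hg38; versions, annotation release and strand setting are not given in the sources used here. All rows name a gene. The 10 kinases and all gene lists were chosen with earlier results of these data known. Groups followed the labels, and the 3 siNC cultures were compared with the 3 siZEB1 cultures.

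Counts were filtered by group (filterByExpr, leaving 14996 of 32029 genes), scaled by TMM and tested with edgeR 4.0.16 (quasi-likelihood, two-sided, Benjamini-Hochberg over all tested genes) in R 4.3.3. The SE is the absolute log2 fold change divided by the square root of F. The p-values test the group difference against the spread between cultures of a group, estimated with information shared across genes. CPM used library totals over the 14996 tested genes, scaled by TMM. TPM used union exon lengths of GENCODE 29, which matched 31059 genes. Intervals of counting error were not computed, and precision at 16 to 91 reads (LCK, FRK, PTK6) is limited by counting. Named were all 10 kinases, ZEB1, up to 6 called genes of at least 1 CPM with the largest absolute change in each list, a set of fixed pathway and marker genes, the 5 genes nearest to SYK and the neighbours within 1 Mb. CD3D, CD3E, CD14, CD247, CSF1R, GZMB, KRT20, CEACAM5, LGALS4, GPA33 and CDH17 were added after their values were seen. Some genes that the rule names are not reported here. Alternatives were median-of-ratios or total-count scaling, no filter, at least 10 reads in every library, a replicate block, leaving out each culture, DESeq2 1.42.0, a call rule of fold above 1.5 with p under 0.001 (given in the study's methods, while its results text names p under 0.05), and longest-transcript lengths.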

Additional observations from a re-analysis of the deposited data

How the results depend on the processing

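SYK, SRC, LCK, FRK, CSK and ABL2 kept the direction and call label under all 12 alternative fits, which, for genes chosen on this contrast, describes the fits only. No filter and the fits without siNC replicate 1 or siNC replicate 3 called 5 kinases higher, adding YES1 in the first 2 and PTK6 in the last. However, under the rule of fold above 1.5 and p under 0.001 the kinases called lower went from 2 to 0, with 4 still called higher. That rule called 678 genes higher and 1004 lower in all. The log2 fold change of LYN reversed to −0.006 with total library size and −0.002 with no filter, and ran from −0.043 to 0.05 on leaving out single cultures. The fold rule gave 1 lower among other cytoplasmic kinases, 0 higher and 3 lower among SRC regulators, 1 higher and 3 lower among SRC substrates, 1 higher and 0 lower among SYK partners, 0 higher and 2 lower among ABL2 partners, 0 higher among fibroblast markers and 0 of the SYK neighbours. Median-of-ratios factors, at least 10 counts in every library, and DESeq2 each gave 2 other cytoplasmic kinases higher, and the 10-count filter gave 1 SYK partner higher and 1 SYK neighbour. No filter and DESeq2 gave 0 fibroblast markers higher.

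Leaving out single cultures gave 1 to 2 other kinases higher, 7 to 11 SRC substrates lower, 1 to 2 SYK partners higher and 1 to 5 lower, 0 to 2 ABL2 partners higher, 0 to 1 haematopoietic markers higher, 0 to 1 fibroblast markers higher and 0 to 1 lower, and 1 to 2 SYK neighbours called. The log2 fold change then ran from −0.054 to 0.046 for BCAR1, −0.01 to 0.16 for CBL and −0.035 to 0.12 for KRT18. With longest-transcript lengths YES1 held 51.4% (siNC) and 53.7% (siZEB1) of SRC-family TPM, FYN 35.1% and 34.3%, and SYK 6.52% and 29.6% of the pair with ZAP70. By Pearson correlation 2 of the 5 genes nearest to SYK stayed among the nearest. The cause of these changes was not tested.

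Same-numbered cultures did not deviate together from their group means, with correlations of −0.205, −0.241 and −0.505 over 11458 genes. Such deviations cancel within a group, so these values cannot tell whether same-numbered cultures were handled together. Between siNC and siZEB1 cultures of different number the correlations ran from −0.287 to 0.412. With a replicate block 2289 genes were called higher and 2679 lower, against 2849 and 3186 without it, the 10 kinases kept their calls, 1 ABL2 partner was called higher and 0 fibroblast markers were called higher. The median log2 fold change of all genes stayed between −0.014 and 0.025 under every setting.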

Other observations

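Annotated 3′ untranslated regions of the kinases were searched for 2 words of 7 bases that earlier results of these data had brought up. GAACACA occurs in 12.7% of the 12321 regions of tested genes, whose median log2 fold change was −0.21, against 0.008 for genes without it. Among the 10 kinases ABL2, which was lower with siZEB1, held it, in 2 copies within a region of 8391 bases. CGGAGAA occurs in 2.68% of the regions (median log2 fold change 0.064 with it and −0.013 without it), and among the 10 kinases SYK held it, in 1 copy within 2949 bases. Because both words came from these same data, the medians only describe them and are no independent evidence about ABL2 or SYK. Longer regions hold any word more often, and the part of region length in these medians was not tested.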
